A study of Mus musculus with 6 samples.

Results

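Cathepsins are proteases of the endosome and lysosome, and 9 of them (Ctsa, Ctsb, Ctsc, Ctsd, Ctsh, Ctsk, Ctsl, Ctss and Ctsz) were followed by gene symbol among the 32285 genes counted in each single-cell library. All 9 symbols were found. The libraries came from primary pancreatic tumours that grew in C57BL/6 mice after orthotopic injection of KPC cells, a mouse pancreatic cancer line. The injected cells carried an empty vector (OE-Vector) or overexpressed MLKL (OE-MLKL), the pore-forming executioner of necroptosis. The labels gave neither the age nor the sex of the mice. Count matrices of 1 library labelled OE-Vector (OE-Vector 1) and 3 libraries labelled OE-MLKL (OE-MLKL 1 to 3) were used, and those of OE-Vector 2 and OE-Vector 3 were not analysed here. By the study's methods the libraries of a group came from separate tumours, although no label names the mouse of each library.

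Most cathepsins are cysteine proteases of the papain family that are made as inactive precursors and cut to the active form in the acidic lysosome. The endopeptidases Ctsl, Ctss and Ctsk cut within protein chains: Ctss processes the invariant chain of MHC class II in antigen-presenting cells, Ctsl does so in thymic epithelium, and Ctsk degrades bone collagen in osteoclasts. The exopeptidases trim chain ends. Among them Ctsb is a dipeptidyl carboxypeptidase that can also cut internally, Ctsc (dipeptidyl peptidase I) activates the serine proteases of granules, Ctsh is an aminopeptidase and Ctsz (cathepsin X) a carboxypeptidase. Ctsd is an aspartic protease, and Ctsa is a serine carboxypeptidase that shields beta-galactosidase and neuraminidase in a complex. In tumours, macrophages are a well-known source of these enzymes.

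In the GRCm38 annotation the 9 genes lay on 6 chromosomes, and only Ctsk (chr3:95499256-95509362) and Ctss (chr3:95526786-95556403) were direct neighbours, on the same strand with 17423 bases and no annotated gene between them. Ctsd, Ctsl and Ctss each overlapped another annotated gene on their own strand (Gm49369, Gm49230 and Hmgb1-ps5, respectively), so part of the reads of these genes could be shared. Promoter windows of the 250 bases before a RefSeq start (GRCm38.p6) were available for 7 of the 9 genes, and they were searched on both strands for the E-box CACGTG, its extended form TCACGTGA, which is the element bound by the lysosomal regulator TFEB, and the PU.1-type element GAGGAAGT. The E-box was present in windows of Ctsa, Ctsd and Ctsl and in 6.02% of all 32851 windows. TCACGTGA was present in windows of Ctsa and Ctsd and in 0.785% of all windows, and each of these matches contains the shorter motif. GAGGAAGT was present in the window of Ctsc and in 2.44% of all windows. The matching stretches of the E-box and of GAGGAAGT are given, and whether they bear on the levels of these genes was not tested. Each stretch is written 5′ to 3′ on the strand of its gene, with the E-box or, for Ctsc, the reverse complement of GAGGAAGT in capitals.
Ctsa, chr2:164833749-164833772, plus strand: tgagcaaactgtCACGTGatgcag
Ctsd, chr7:142388055-142388077, minus strand: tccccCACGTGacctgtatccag
Ctsd, chr7:142387908-142387937, minus strand: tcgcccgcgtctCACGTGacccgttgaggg
Ctsl, chr13:64370739-64370768, minus strand: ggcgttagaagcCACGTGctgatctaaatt
Ctsc, chr7:88277923-88277952, plus strand: gtcactaactaACTTCCTCaggccacctcg
Counted to the RefSeq start of its window, which for Ctsa, Ctsd and Ctsl lies inside the gene as the GRCm38 annotation draws it, the match of Ctsa began 12 bases before it, those of Ctsd 245 and 98 bases, that of Ctsl 236 and that of Ctsc 151. These matches are letters in a window and not measured binding.

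The 4 libraries held 150591289 to 169978362 UMIs, and 74545 cells passed the filters, with a median of 1983 to 5287 UMIs per cell. Classes were set by marker levels per cell, with no cathepsin among the markers: 10271 macrophages, 351 monocytes, 411 dendritic cells, 23909 neutrophils and 21842 cancer cells. In cancer cells Mlkl was at 8.64, 12.9 and 19.7 UMIs per 1000000 UMIs of the class (CPM) in the libraries labelled OE-MLKL 1 to 3 and at 16.5 CPM in OE-Vector 1, so that OE-MLKL 3 alone lay above it. Overexpression of Mlkl was therefore not seen in these counts, and whether the 3′ libraries count the introduced Mlkl was not tested, so the groups are used below as labelled. OE-MLKL 3 stood apart from the other libraries, with 3047 barcodes removed for mitochondrial RNA against 1253 to 1587 and, per 10000 UMIs, a median of 2.14 for enterocyte markers (Apoa4, Apoa1, Fabp2 and Alpi) in macrophages and 5.02 in neutrophils against 0 in the other libraries, and each comparison of the groups was therefore also made without it. Barcodes shared between libraries accounted for 0.475% to 0.741% of the cells of the smaller library of a pair, and removing them changed no cathepsin call of a group comparison. Droplets of at most 100 UMIs (low barcodes), which mostly hold free RNA, contained the 9 cathepsins at 2279 to 3879 CPM in sum.

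Macrophages held far more cathepsin mRNA than any other class measured. The 9 genes summed to 10055 to 14198 CPM in macrophages, 4486 to 7360 CPM in monocytes, 1376 to 3122 CPM in neutrophils, 1672 to 1929 CPM in dendritic cells and 1038 to 1216 CPM in cancer cells over the 4 libraries. Ctsb made up 23.4% to 25.5% of these UMIs in macrophages and Ctss 18.2% to 31.7%. The leading gene differed by class: Ctsd held 35.3% to 49.4% of the cathepsin UMIs of neutrophils, Ctss 28.5% to 40.2% of those of dendritic cells, and Ctsl 28.8% to 53.3% of those of 209 fibroblasts. Since the 3′ libraries give 1 UMI per captured transcript, these shares do not depend on transcript length, although capture may differ between genes.

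**Figure D1:**
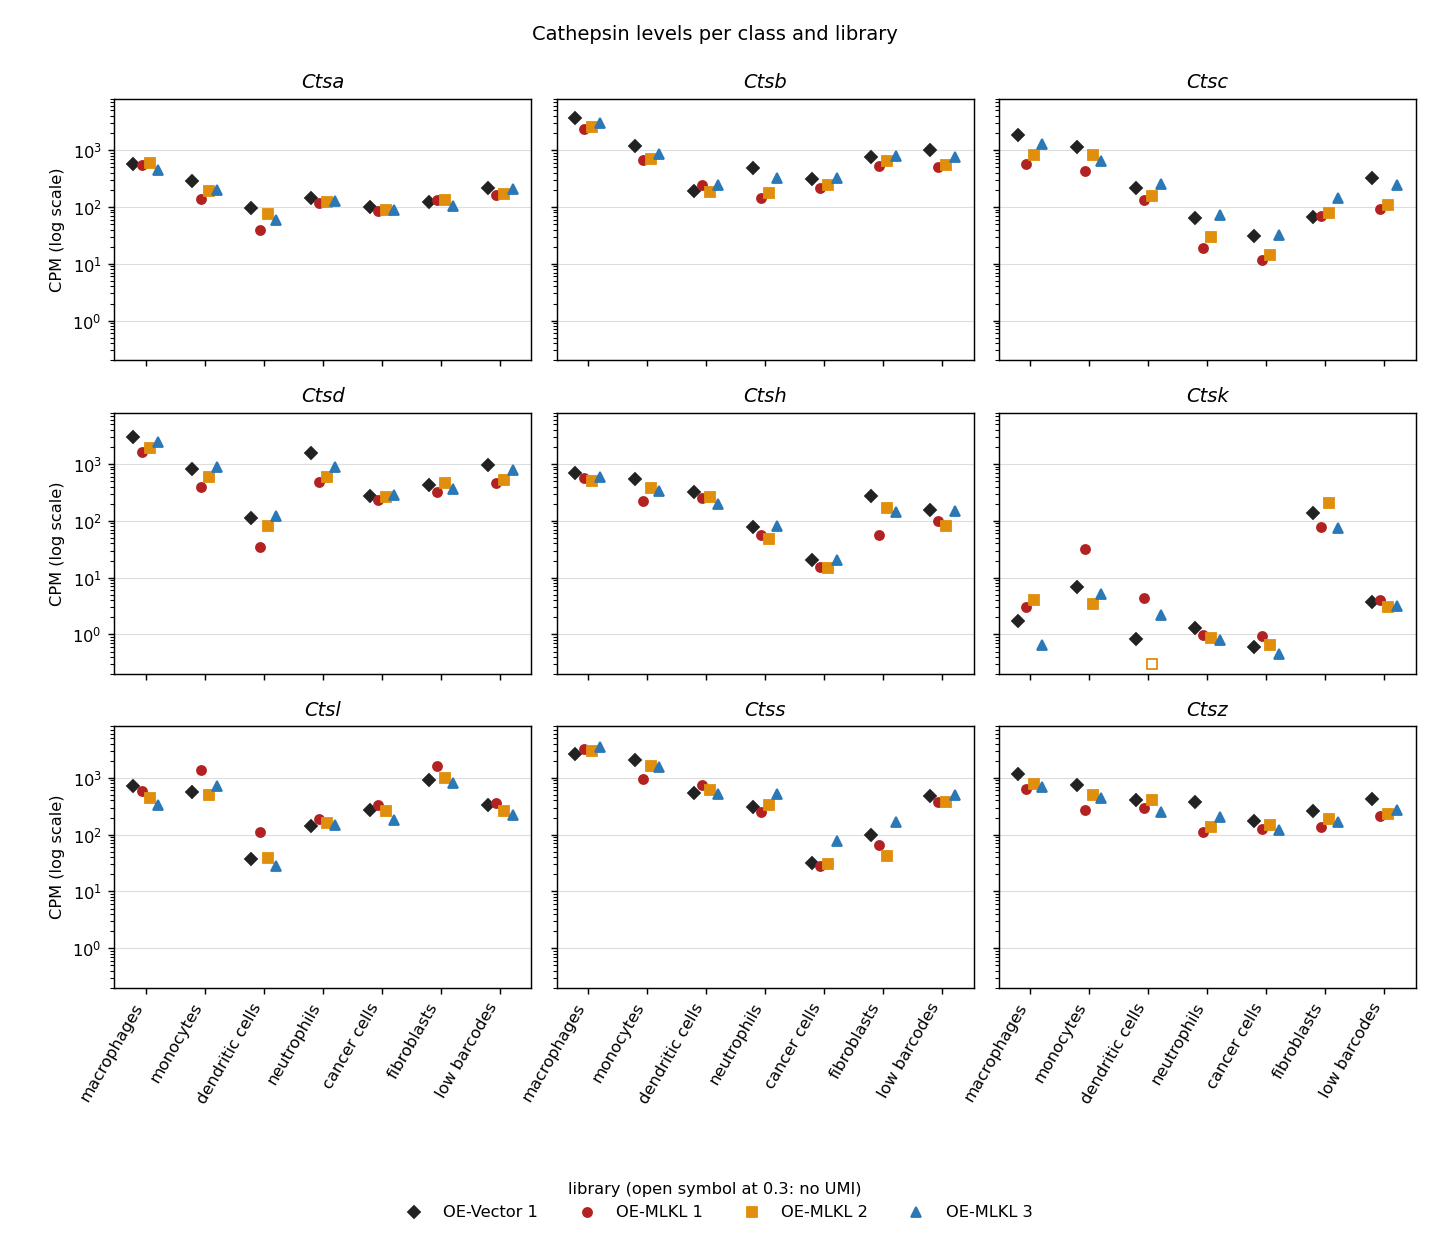
Level of each cathepsin in CPM (log axis) in macrophages, monocytes, dendritic cells, neutrophils, cancer cells, fibroblasts and droplets of at most 100 UMIs (low barcodes). Each symbol is 1 library; macrophages lead for Ctsb (2350 to 3626 CPM) and Ctss (2580 to 3525 CPM), whereas Ctsk is highest in fibroblasts (76.1 to 206 CPM).

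Among the endopeptidases, Ctss separated the immune classes from cancer cells most strongly. Its level was 2580 CPM in macrophages of OE-Vector 1 and 3185, 3004 and 3525 CPM in those of OE-MLKL 1 to 3. Dendritic cells held 550, 747, 619 and 522 CPM in the same order, and neutrophils 301, 254, 337 and 526 CPM. The ranges of macrophages and monocytes (968 to 2076 CPM) did not overlap, whereas those of dendritic cells and neutrophils overlapped. Cancer cells held 76.5 CPM in OE-MLKL 3 and 28.3 to 32.2 CPM in each other library. Relative to low barcodes this was 6.75% to 15.4% of the Ctss level, beside 6.11% to 10.4% for the macrophage complement genes C1qa, C1qb and C1qc, which cancer cells should lack and which the cancer gate itself keeps low.

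Ctsl was the member that differed least between macrophages and cancer cells. It ranged from 327 to 712 CPM in macrophages, 500 to 1347 CPM in monocytes and 794 to 1596 CPM in fibroblasts, where monocytes overlapped with both other classes, and from 142 to 187 CPM in neutrophils, which overlapped with cancer cells alone. In cancer cells it was 274 CPM in OE-Vector 1 and 328, 257 and 183 CPM in OE-MLKL 1 to 3, and the value of OE-MLKL 1 just reached the macrophage range. These levels were 81.8% to 97.9% of those in low barcodes, far above the C1q share given for cancer cells, whereas dendritic cells had 27.8 to 113 CPM of Ctsl, or 11.1% to 31.9% of the low-barcode level. Ctsk was near absent from myeloid and cancer cells. It gave 31, 37, 55 and 15 UMIs in all macrophages of OE-Vector 1 and OE-MLKL 1 to 3 (0.65 to 4.10 CPM) and at most 0.95 CPM in cancer cells. The 209 fibroblasts carried 49, 37, 69 and 62 UMIs of Ctsk, or 137, 78.5, 206 and 76.1 CPM. The fibroblast range overlapped with no other class shown, the highest other value being 32.0 CPM from 13 UMIs in monocytes of OE-MLKL 1.

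Between macrophages and dendritic cells, the exopeptidases divided into a pair that differed more (Ctsb and Ctsc) and a pair that differed less (Ctsh and Ctsz). Each of these genes was higher in macrophages than in dendritic cells and also present in monocytes. Ctsb was 3626, 2350, 2555 and 2963 CPM in macrophages of OE-Vector 1 and OE-MLKL 1 to 3, and 682 to 1160 CPM in monocytes. Neutrophils (145 to 480 CPM), cancer cells (213 to 327 CPM) and dendritic cells (186 to 243 CPM) overlapped in Ctsb. Ctsc was 1874, 577, 816 and 1282 CPM in macrophages, overlapped there with monocytes (426 to 1138 CPM), and was 130 to 253 CPM in dendritic cells. In neutrophils Ctsc was only 18.7 to 72.0 CPM, and in cancer cells 11.4 to 32.7 CPM. The low level in cancer cells amounted to 9.58% to 13.4% of that in low barcodes, beside 6.11% to 10.4% for C1q.

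Apart from Ctsk, which was near absent from both classes, Ctsh and Ctsz differed least between dendritic cells and macrophages. Ctsh was 694, 564, 511 and 596 CPM in macrophages and 317, 247, 264 and 194 CPM in dendritic cells, against 47.2 to 80.3 CPM in neutrophils and 14.5 to 20.4 CPM in cancer cells. These 4 ranges of Ctsh did not overlap, and dendritic cells carried 132% to 323% of the low-barcode level while cancer cells carried 13.1% to 17.7%. Ctsz was 1182, 645, 781 and 692 CPM in macrophages and 411, 299, 407 and 254 CPM in dendritic cells. It was 112 to 373 CPM in neutrophils and 120 to 174 CPM in cancer cells, so that neutrophils overlapped with both dendritic cells and cancer cells. Monocytes carried 226% to 458% of the low-barcode level of Ctsh. For Ctsz they carried 129% to 219%, beside 94.5% to 179% in dendritic cells.

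Ctsd, the aspartic protease, was the leading cathepsin of neutrophils. Neutrophils held 1542 CPM in OE-Vector 1 and 486, 589 and 872 CPM in OE-MLKL 1 to 3, and macrophages 2961, 1591, 1919 and 2426 CPM. The macrophage and neutrophil ranges did not overlap, although OE-Vector 1 neutrophils came close to the lowest macrophage value. Dendritic cells had the least Ctsd of the classes compared, 34.7 to 119.6 CPM. This was 7.43% to 15.5% of the low-barcode level, beside 6.12% to 11.1% for C1q in the same cells. Cancer cells held 228 to 284 CPM of Ctsd. Ctsa, the serine carboxypeptidase, was 441 to 601 CPM in macrophages, 116 to 142 CPM in neutrophils, 85.4 to 100.1 CPM in cancer cells and 39.1 to 94.4 CPM in dendritic cells.

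The share of cells with a UMI was compared after each cell was thinned to 1000 UMIs, which leaves out shallower cells, and which kept 4133 of 5447, 1098 of 4762, 1891 of 7769 and 5441 of 5931 neutrophils in OE-Vector 1 and OE-MLKL 1 to 3 but nearly all macrophages (1903 of 1964 to 3037 of 3137). Ctsb was seen in 84.7% to 92.4% of thinned macrophages (98.2% to 98.9% as counted) and 12.0% to 35.1% of thinned neutrophils (10.9% to 42.8% as counted). Ctsd was seen in 35.0% to 71.6% of thinned neutrophils (31.7% to 79.8% as counted). T and NK cells, thinned in the same way, had a UMI of Ctsb in 15.4% to 23.8% of cells (45.5% to 59.2% as counted) and of Ctsd in 26.4% to 35.8% (61.7% to 74.2% as counted). The thinned share of Ctsb in neutrophils of OE-MLKL 1 and OE-MLKL 2 (12.0% and 15.6%) lay below that of the T and NK cells of the same library, whereas for Ctsd the neutrophil share was the higher in each library. Ctss was seen in 88.3% to 94.9% of thinned macrophages but 2.40% to 7.23% of thinned cancer cells, where the share as counted was 25.3% to 68.7% because cancer cells had median depths of 12326 to 25464 UMIs against 4193 to 8681 in macrophages. Beside this, 8.30% to 15.1% of thinned T and NK cells had a UMI of Ctss (26.9% to 41.8% as counted, median depth 2687 to 3610 UMIs), so that the share in cancer cells lay below that in T and NK cells.

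The class differences were tested on UMI sums per library and class with edgeR's quasi-likelihood test and library as a block, with p-values adjusted over all genes tested; a gene is called when its adjusted p is under 0.05. Against neutrophils, 8 of the 9 cathepsins were higher in macrophages and 66.7% of all 14016 genes were called in either direction. The log2 fold change (± SE) was largest for Ctsc at 4.46 ± 0.24 (adjusted p = 5.28e-12), followed by Ctsb at 3.24 ± 0.23, Ctsh at 3.0 ± 0.19 and Ctss at 2.98 ± 0.27. It was smallest among the called genes for Ctsd at 1.23 ± 0.20 (adjusted p = 2.09e-05). Ctsk was not called, at 0.84 ± 0.47 (adjusted p = 0.121). With 66.7% of genes called, the number of cathepsins called says little by itself, but the median difference of the 9 genes was 1.91 beside −0.01 over all genes.

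Against cancer cells all 9 cathepsins were higher in macrophages, where 66.4% of all genes were called. Ctss differed most, by 6.53 ± 0.31 on the log2 scale (adjusted p = 1.91e-13), then Ctsc by 5.92 ± 0.26 and Ctsh by 5.32 ± 0.21. Ctsl differed least, by 1.23 ± 0.22 (adjusted p = 6.09e-05). The median difference of the 9 genes was 3.25 beside −0.03 over all genes. In cancer cells Ctss, Ctsc and Ctsh were at 6.75% to 15.4%, 9.58% to 13.4% and 13.1% to 17.7% of their low-barcode levels, beside 6.11% to 10.4% for C1q, and the part of free RNA in these differences was not tested.

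Against dendritic cells 8 of 9 were higher in macrophages and 33.4% of all genes were called. The difference was largest for Ctsd at 4.71 ± 0.25 (adjusted p = 1.07e-11), and it was 3.77 ± 0.25 for Ctsb and 3.54 ± 0.28 for Ctsl. Ctsh at 1.28 ± 0.19 and Ctsz at 1.30 ± 0.22 differed least among the called genes, and Ctsk did not pass (0.06 ± 0.78, adjusted p = 0.969). The dendritic cell gate required low macrophage markers, which limits macrophage RNA in these cells and itself keeps C1q low. In dendritic cells Ctsd was at 7.43% to 15.5% of its low-barcode level, beside 6.12% to 11.1% for C1q. The part of free RNA in these differences was not tested.

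Against monocytes, the Ly6c2 and Ccr2 cells from which tumour macrophages are known to arise, 6 of 9 cathepsins were higher in macrophages and 1 lower, with 13.8% of all genes called. Ctsb (1.88 ± 0.23), Ctsd (1.87 ± 0.21) and Ctsa (1.54 ± 0.16) differed most, then Ctss (1.09 ± 0.25), Ctsz (0.91 ± 0.22) and Ctsh (0.82 ± 0.19). Ctsc (0.60 ± 0.21, adjusted p = 0.0700) and Ctsl (−0.43 ± 0.23, adjusted p = 0.246) did not pass, but Ctsc was called by limma-voom (0.67), without the filter on low counts (0.61), without shared barcodes (0.63) and without OE-MLKL 2 (0.81). Ctsk was lower in macrophages by fit, at −2.28 ± 0.57 (adjusted p = 0.00899), but it rested on 5, 13, 1 and 1 monocyte UMIs, and the call was lost without OE-MLKL 1 (−1.41) and with a stricter gate (−0.72). Monocytes numbered 42 to 157 per library, and 25.1% of them lay within 1.5 times the gate. Without OE-MLKL 1 the call of Ctsh was lost as well (0.61), with the stricter gate that of Ctss (0.75), and without the library block those of Ctsh (0.76) and Ctsz (0.84).

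Neutrophils compared with cancer cells had 7 of 9 cathepsins higher, where 78.8% of all genes were called. Ctss led at 3.55 ± 0.27 (adjusted p = 2.48e-10), followed by Ctsh at 2.32 ± 0.19 and Ctsd at 2.02 ± 0.21. Ctsb (0.39 ± 0.22, adjusted p = 0.105) and Ctsl (−0.24 ± 0.22, adjusted p = 0.324) did not pass, but Ctsb was called without OE-MLKL 1 (0.56) and Ctsl without the filter on low counts (−0.44). The call of Ctsk (1.11 ± 0.48, adjusted p = 0.0399) rested on 4 to 10 neutrophil UMIs per library and was lost without the filter on low counts (0.92), with the stricter gate (0.94), without the deepest 5% of cells (0.95), without the library block (1.02), without OE-Vector 1 (0.86) and without OE-MLKL 3 (1.13).

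**Figure D2:**
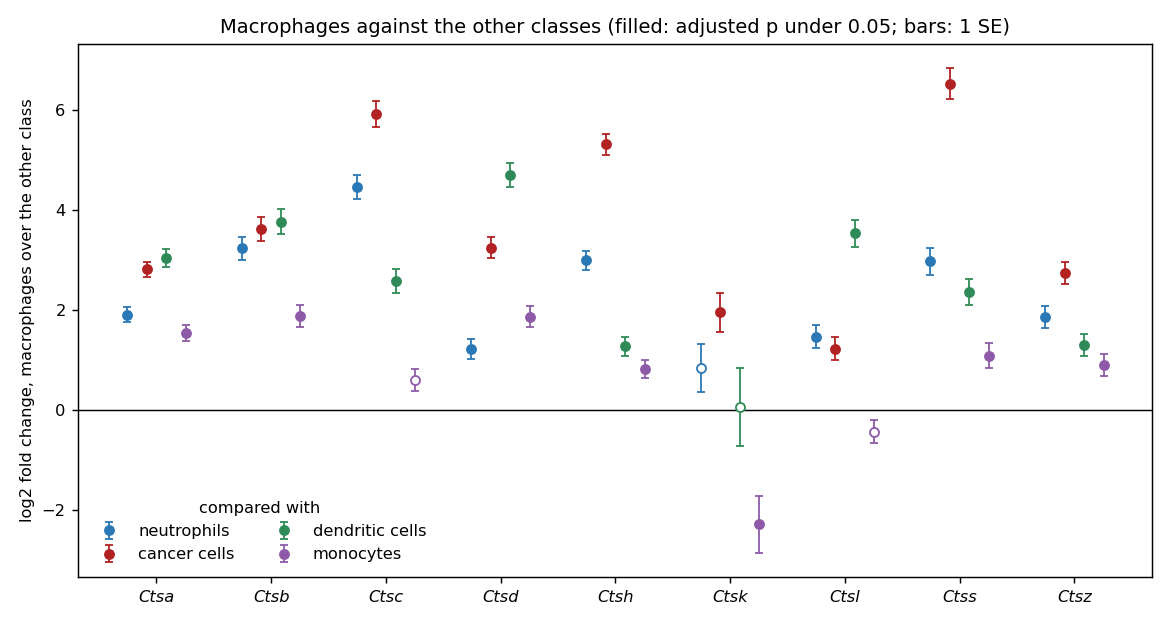
Log2 fold change of each cathepsin in macrophages over neutrophils, cancer cells, dendritic cells and monocytes, from the edgeR fit over 4 libraries. Points are estimates, bars 1 SE and filled points passed an adjusted p of 0.05; Ctss against cancer cells (6.53) is the largest difference, and Ctsk against monocytes (−2.28) is the only filled point below 0.

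Macrophages were divided by level of marker genes into 4406 Arg1 macrophages, 3552 Mrc1-F13a1 macrophages without Arg1, 982 Cx3cr1 macrophages and 556 proliferating macrophages. Arg1 marks tumour macrophages that consume arginine, Mrc1 (CD206) and F13a1 mark resident-like or alternatively activated cells, and Cx3cr1 is a chemokine receptor. Ctsl and Ctsd were higher in Arg1 than in both Mrc1-F13a1 and Cx3cr1 macrophages. Ctsl was 1025, 674, 500.01 and 452 CPM in Arg1 macrophages of OE-Vector 1 and OE-MLKL 1 to 3. It was 414, 537, 381 and 291 CPM in Mrc1-F13a1 macrophages and 309, 485, 309 and 229 CPM in Cx3cr1 macrophages. Within every library the Arg1 subset had the highest and the Cx3cr1 subset the lowest value of these 3 subsets, with a ratio of Arg1 to Cx3cr1 macrophages of 3.32 in OE-Vector 1 and 1.39 to 1.98 in the other libraries. Ctsd was 3461, 1830, 2069 and 3149 CPM in Arg1 macrophages, 2943, 1530, 1871 and 2485 CPM in Mrc1-F13a1 macrophages and 1911, 1398, 1143 and 1428 CPM in Cx3cr1 macrophages. The order of the 3 subsets for Ctsd was again the same in all 4 libraries.

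Tested within libraries, 3 cathepsins were higher in Arg1 than in Mrc1-F13a1 macrophages, where 9.90% of all 11692 genes were called. Ctsl differed by 0.74 ± 0.12 on the log2 scale (adjusted p = 6.17e-05), Ctsd by 0.30 ± 0.07 (adjusted p = 0.00276) and Ctss by 0.19 ± 0.06 (adjusted p = 0.0424). The call of Ctss was lost by limma-voom (0.16), without the deepest 5% of cells (0.19), without OE-Vector 1 (0.15), without OE-MLKL 1 (0.19) and without OE-MLKL 2 (0.18). Between Arg1 and Cx3cr1 macrophages, with 8.90% of all genes called, Ctsl (1.10 ± 0.14, adjusted p = 1.73e-06), Ctsd (0.89 ± 0.07, adjusted p = 3.22e-10) and Ctsb (0.33 ± 0.06, adjusted p = 0.000127) were higher in the Arg1 subset. Ctsh was lower there by fit (−0.32 ± 0.07, adjusted p = 0.00164), and Ctsk was called as higher without the deepest 5% of cells alone (3.05). Between Mrc1-F13a1 and Cx3cr1 macrophages, with 3.32% of all genes called, Ctsd (0.59 ± 0.07) and Ctsb (0.28 ± 0.06) were higher and Ctsh was lower (−0.28 ± 0.07, adjusted p = 0.0162), whereas Ctsl did not pass (0.36 ± 0.14, adjusted p = 0.225) except without the filter on low counts (0.39). Without OE-MLKL 3, which held 628 of the Cx3cr1 macrophages, Ctsd alone remained past the threshold in that comparison, and without OE-Vector 1 or without OE-MLKL 2 the call of Ctsh was lost (−0.28 and −0.21), as by limma-voom (−0.24). All cathepsin calls between macrophage subsets needed the library block, since without it the spread between libraries enters the error and none passed.

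Ctsh was the member called in the other direction, at 811, 731, 718 and 684 CPM in Cx3cr1 macrophages against 691, 502, 512 and 554 CPM in Arg1 macrophages. In each library the Cx3cr1 value was the higher. Proliferating macrophages, marked by Mki67, Top2a, Birc5 and Stmn1, had 7 of 9 cathepsins lower than the other named subsets, where 32.8% of all genes were called. The called differences ran from −0.21 ± 0.06 for Ctsd to −0.50 ± 0.12 for Ctsl, and Ctsc did not pass (−0.10 ± 0.06, adjusted p = 0.240). Without OE-MLKL 3 the call of Ctsd was lost (−0.18). These cells had a higher median depth (6972 to 13418 UMIs) than Arg1 macrophages (4799 to 9136 UMIs), and the part of depth in the result was not tested.

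**Figure D3:**
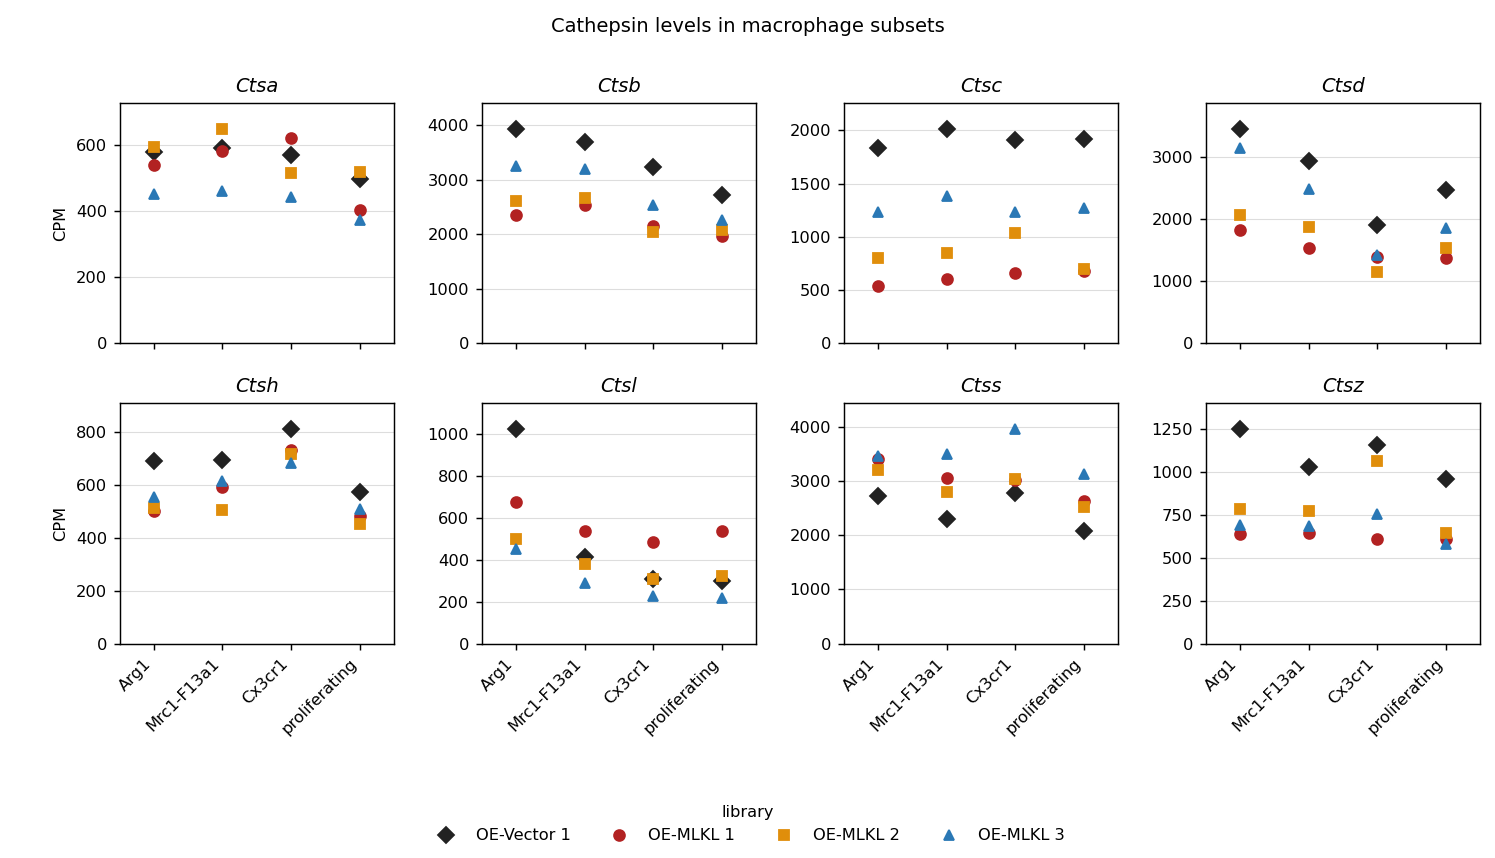
Levels in CPM of 8 cathepsins in Arg1, Mrc1-F13a1, Cx3cr1 and proliferating macrophages; each symbol is 1 library and the axes start at 0. Ctsl and Ctsd fall from the Arg1 to the Cx3cr1 subset in every library (Ctsl from 1025 to 309 CPM in OE-Vector 1), and Ctsh is higher in the Cx3cr1 than in the Arg1 subset in every library.

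Within dendritic cells, Ccr7 cells, a mature migratory state, were compared with Xcr1-Clec9a cells, the cross-presenting conventional type 1 subset. Only sums of at least 20 cells entered, which left 3 libraries with Ccr7 cells and 3 with Xcr1-Clec9a cells. Of the 7 cathepsins tested 3 were higher in Ccr7 cells, where 27.7% of all genes were called. Ctsh was 473, 455 and 309 CPM in Ccr7 cells of OE-Vector 1, OE-MLKL 2 and OE-MLKL 3 and 201, 136 and 157 CPM in Xcr1-Clec9a cells, a log2 difference of 1.32 ± 0.26 (adjusted p = 0.000636). Ctsz was 617, 572 and 401 CPM against 272, 365 and 218 CPM (0.98 ± 0.25, adjusted p = 0.00492). The values of the subsets did not overlap for either gene. Ctsd differed by 0.95 ± 0.29 (adjusted p = 0.0177) on 39, 11 and 43 UMIs in Ccr7 cells, and its call was lost by DESeq2 (0.92), by limma-voom (0.95), without the filter on low counts (0.86), with the stricter gate (0.67), without the deepest 5% of cells (0.69), without the library block (0.87) and without OE-Vector 1 (0.92), OE-MLKL 2 (0.87) or OE-MLKL 3 (0.95). The call of Ctsz was lost without OE-Vector 1 (0.78) and without the library block (0.94). Ctss, not called otherwise, was called as higher with the stricter gate (0.60), without the deepest 5% of cells (0.54) and without OE-MLKL 3 (0.71), and Ctsc as lower with the first of these (−0.89) and with the second (−0.80). Only 17 Cd209a dendritic cells were found, 0 to 10 per library, and no comparison was made with them.

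The libraries labelled OE-MLKL were then compared with OE-Vector 1 class by class, the question being whether tumours of cells labelled as MLKL-overexpressing hold myeloid cells with other cathepsin levels. With 1 library against 3, the fit has 2 residual degrees of freedom per gene, the lone OE-Vector library is assumed to vary like the others, and an exact permutation test over libraries cannot give a p below 0.25. Without OE-MLKL 3 the fit sets 1 library against 2 and has fewer degrees of freedom still. Its spread within a class then comes from OE-MLKL 1 and OE-MLKL 2 alone, so calls made only there carry little weight. OE-Vector 1 lay above each OE-MLKL library for 6 of 9 members in macrophages and in monocytes and for 5 in neutrophils. In dendritic cells and in cancer cells it did so for 3 of 9, with 6 inside the OE-MLKL range. The share of all genes with such a position was not counted. No cathepsin passed the edgeR test in any of the 9 classes, nor by DESeq2 or limma-voom.

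In macrophages 6 of 9 members (Ctsb, Ctsc, Ctsd, Ctsh, Ctsl and Ctsz) were higher in OE-Vector 1 than in each OE-MLKL library, and Ctss was lower. How often genes in general lay above or below all OE-MLKL libraries was not counted, and the members share 1 OE-Vector library. Ctsc was 1874 CPM in OE-Vector 1 and 892 ± 359 CPM (SD, n = 3) in the OE-MLKL libraries, and Ctsz was 1182 against 706 ± 68.9 CPM. OE-MLKL 1 was lowest and OE-MLKL 3 nearest to OE-Vector 1 for Ctsb, Ctsc and Ctsd, whereas for Ctsz the 3 OE-MLKL libraries lay close together. On the log2 scale Ctsc differed by −1.20 ± 0.43 and Ctsz by −0.86 ± 0.32 (negative where OE-MLKL is lower), with adjusted p = 0.808 and 0.811. These were the 2 members at an unadjusted p under 0.05, beside 823 such genes of 13883 and 2 called genes (0.0144%). Ctss was 2580 CPM in OE-Vector 1 and 3238 ± 264 CPM in the OE-MLKL libraries (0.21 ± 0.38). The adjusted p of the 9 members lay between 0.808 and 0.960, and their median difference was −0.58 beside 0.04 over all genes.

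Neutrophils showed the same direction for Ctsb, Ctsd and Ctsz. Ctsd was 1542 CPM in OE-Vector 1 and 649 ± 200 CPM (SD, n = 3) in the OE-MLKL libraries, Ctsb 480 against 214 ± 92.7 CPM and Ctsz 373 against 150.2 ± 47.5 CPM. Each OE-MLKL value was below OE-Vector 1 for these genes, with OE-MLKL 3 the nearest, so that leaving it out enlarges the differences. The log2 fold change was −1.57 ± 0.38 for Ctsz, −1.51 ± 0.40 for Ctsd and −1.43 ± 0.45 for Ctsb, each at an adjusted p of 0.587, and no gene of 12842 was called (0%). At an unadjusted p under 0.05 there were 1040 genes, and DESeq2 called 83 genes and limma-voom 0. Without OE-MLKL 3 the outcome differed: 1153 of 12358 genes (9.33%) and 4 of the 8 cathepsins tested were called, namely Ctsz (−1.82, adjusted p = 0.00688), Ctsb (−1.80, adjusted p = 0.00818), Ctsd (−1.75, adjusted p = 0.0135) and Ctsc (−1.60, adjusted p = 0.0205). Ctsk did not pass the filter on low counts in neutrophils.

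The free RNA moved with these differences. In low barcodes Ctsb was 988 CPM in OE-Vector 1 and 512, 556 and 762 CPM in OE-MLKL 1 to 3, Ctsd was 956 against 468, 526 and 795 CPM, and Ctsz was 429 against 209, 227 and 269 CPM. The libraries thus had the same order in low barcodes as in neutrophils for these 3 genes. Neutrophils carried C1q at 14.2% to 23.6% of its low-barcode level, but Ctsd at 104% to 161%, Ctsz at 53.6% to 86.9% and Ctsb at 28.3% to 48.6%. Ctsc, at 19.9% to 29.4%, overlapped with C1q, and in low barcodes it too was higher in OE-Vector 1 than in each OE-MLKL library. Neutrophils also differed in median depth, at 1219 UMIs in OE-Vector 1 and 749, 786 and 1438 UMIs in OE-MLKL 1 to 3. The median of the summed macrophage markers in neutrophils was 3.52 per 10000 UMIs for OE-Vector 1 against 0, 0 and 7.97 for OE-MLKL 1 to 3, and that of monocyte markers 5.82 against 15.3, 15.6 and 8.98. The part of free RNA, of other cells' RNA and of depth in the group difference was not tested.

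**Figure D4:**
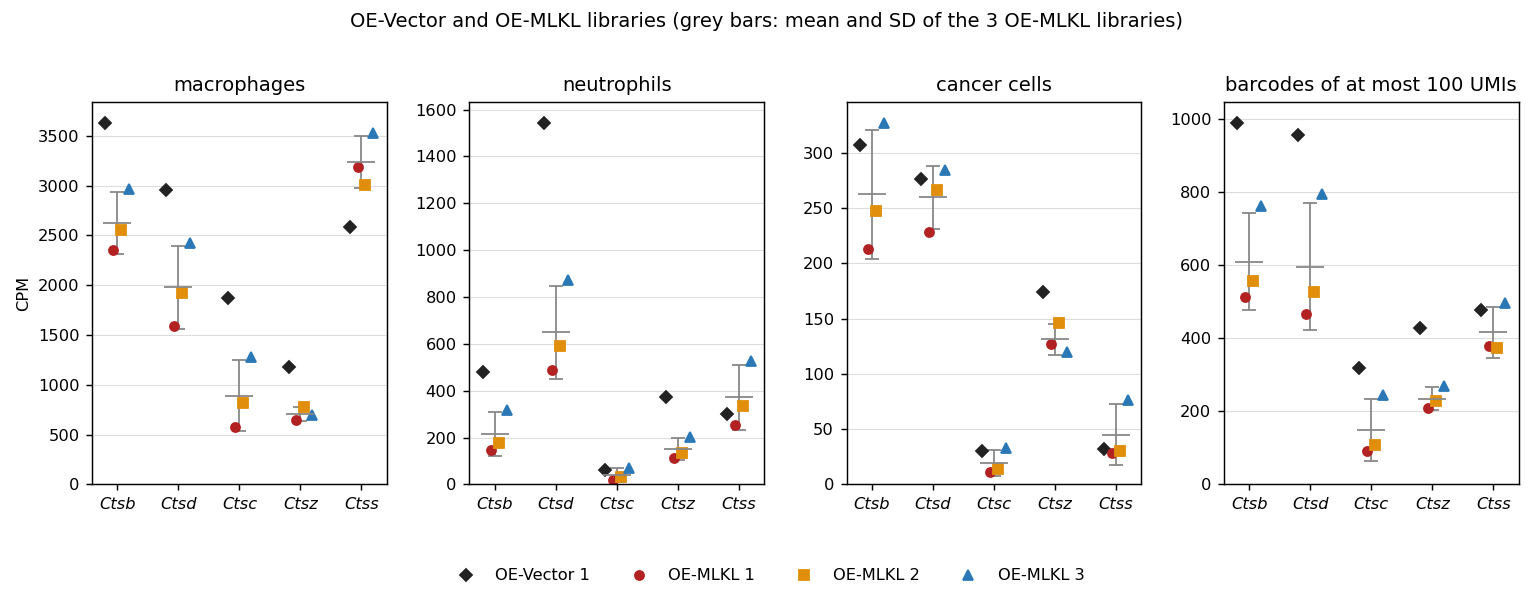
Levels in CPM of Ctsb, Ctsd, Ctsc, Ctsz and Ctss in macrophages, neutrophils, cancer cells and barcodes of at most 100 UMIs, on axes that start at 0. Symbols are libraries and grey bars the mean and SD of the 3 OE-MLKL libraries; OE-Vector 1 lies above every OE-MLKL library for Ctsb, Ctsd and Ctsz in macrophages, neutrophils and low barcodes, but not for Ctsb and Ctsd in cancer cells.

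In Arg1 macrophages 3 members had an unadjusted p under 0.05, beside 917 such genes of 12683. Ctsc was 1832 CPM in OE-Vector 1 and 855 ± 352 CPM in OE-MLKL (SD, n = 3), or −1.25 ± 0.42 on the log2 scale. Ctsl was 1025 against 542 ± 117 CPM (−1.04 ± 0.37), and Ctsz 1253 against 705 ± 72.8 CPM (−0.96 ± 0.32). All 3 genes were lower in each OE-MLKL library, but the adjusted p of the members was 0.568 or more, and 6 of 12683 genes were called (0.0473%). Without OE-MLKL 3 the Ctsc difference was called (−1.56, adjusted p = 7.58e-05), as were 957 of 12357 genes (7.74%). Ctsc was the 1 member at an unadjusted p under 0.05 in Mrc1-F13a1 macrophages (−1.15 ± 0.45, adjusted p = 0.842), where 0 of 11981 genes (0%) were called by edgeR, 16 by DESeq2 and 0 by limma-voom, with 690 genes at an unadjusted p under 0.05. There it was called without OE-MLKL 3 (−1.49, adjusted p = 0.0152), as were 425 of 11696 genes (3.63%).

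In Cx3cr1 macrophages Ctsc was 1906 CPM in OE-Vector 1 and 660.0, 1037 and 1236 CPM in OE-MLKL 1 to 3 (−1.03), with 12 of 9603 genes called (0.125%). In proliferating macrophages it was 1922 CPM and 679, 700 and 1268 CPM (−1.22 ± 0.39, adjusted p = 0.916), with 0 of 10111 genes called by edgeR (0%), 0 by DESeq2 and 1 by limma-voom, beside 380 genes at an unadjusted p under 0.05. The Cx3cr1 and proliferating subsets held as few as 42 and 27 cells in a library. In every macrophage subset Ctsb, Ctsc, Ctsd, Ctsh and Ctsz were higher in OE-Vector 1 than in each OE-MLKL library, and Ctss was lower. The subsets share their libraries and are not independent of each other, and the share of all genes with such a position was not counted.

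Monocytes, dendritic cells and cancer cells gave no cathepsin at an unadjusted p under 0.05 by edgeR, beside 271, 363 and 825 such genes. In monocytes Ctsc was 1138 CPM in OE-Vector 1 and 426, 822 and 649 CPM in OE-MLKL 1 to 3, and Ctss, unlike in macrophages, was also highest in OE-Vector 1 (2076 against 968, 1627 and 1561 CPM); 3 of 6688 genes were called (0.0449%). In dendritic cells Ctsz was 411 against 299, 407 and 254 CPM and Ctss 550 against 747, 619 and 522 CPM, with 2 of 8369 genes called (0.0239%) and Ctsk left out by the filter on low counts. In cancer cells Ctsb was 307 against 213, 248 and 327 CPM, Ctsd 276 against 228, 267 and 284 CPM and Ctsz 174 against 127, 147 and 120 CPM, with 1 of 17497 genes called (0.00572%). OE-Vector 1 was thus inside the OE-MLKL range for Ctsb and Ctsd in cancer cells and above it for Ctsz. The adjusted p of every member in these 3 classes was 0.994 or more.

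Whether the group difference itself differed between classes was tested as an interaction for 4 pairs of classes, and 0 of 9 members passed in any pair by edgeR. The largest was Ctsd in neutrophils relative to cancer cells, at −1.38 ± 0.36 on the log2 scale (adjusted p = 0.202), with Ctsb at −1.13 ± 0.36 and Ctsz at −1.07 ± 0.42 and 0.0317% of 15791 genes called. These were the 3 members at an unadjusted p under 0.05 there, beside 1245 such genes. Between macrophages and neutrophils 0.0190% of genes were called and 2 members, Ctsb (0.89 ± 0.36) and Ctsd (0.84 ± 0.36), had an unadjusted p under 0.05, beside 1072 such genes. For macrophages relative to cancer cells and to dendritic cells 0% and 0.00633% of genes were called and no member had an unadjusted p under 0.05, with 606 and 585 such genes. Without OE-MLKL 3, 5 member differences passed: Ctsd (−1.58), Ctsz (−1.46) and Ctsb (−1.37) between neutrophils and cancer cells, where 4.25% of all genes were then called, and Ctsb (1.19) and Ctsz (1.05) between macrophages and neutrophils, where 3.60% were.

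Genes around the cathepsins were read from 6 lists holding 42 genes. In macrophages against neutrophils, 40 of them were tested, of which 21 were higher and 10 lower, with a list median of 0.67 beside −0.01 over all genes, of which 66.7% were called. The cystatins and stefins, which inhibit cysteine cathepsins, had 1 of 8 higher and 5 lower in macrophages: the stefins Stfa2l1 (−6.88 ± 0.22), Stfa1 (−6.87 ± 0.20), Stfa2 (−6.75 ± 0.26) and Stfa3 (−5.98 ± 0.39) were neutrophil genes by far, while Cst7, which restrains Ctsc, was higher in macrophages by 2.14 (named after its value was seen). The stefin A genes are near-identical copies, so reads may be split among them. Genes of maturation and sorting had 5 of 7 higher and 2 lower: Lgmn, the asparaginyl endopeptidase that cuts several cathepsin precursors, was higher by 4.49 ± 0.23 and Psap by 2.73 ± 0.20, and the sorting receptors Sort1 (−1.76 ± 0.21) and Igf2r (−1.21 ± 0.32) were lower.

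In the same comparison with neutrophils, partners and substrates of the cathepsins had 4 of 7 higher and 1 lower in macrophages. The lower gene was Neu1 (−0.39, named after its value was seen). With 66.7% of all 14016 genes called in either direction, the numbers called in these lists say little by themselves. Cd74, the invariant chain cut by Ctss, was higher by 3.99 ± 0.36, Grn by 2.61 ± 0.17, and Glb1, the beta-galactosidase shielded by Ctsa, by 2.19 ± 0.31. Genes of the lysosome membrane and proton pump had 7 of 10 higher and 0 lower, led by Atp6v0d2 (2.47 ± 0.41), Cd68 (2.39 ± 0.25) and Lamp1 (2.34 ± 0.16). Of 4 transcription factors of the lysosome, Tfec (2.93 ± 0.23) and Mitf (1.02 ± 0.23) were higher and Tfeb was lower (−0.88 ± 0.22). Other cathepsins had 2 of 4 higher (Ctsf 4.27 ± 0.35 and Ctso 1.57 ± 0.20) and 1 lower (Ctse −3.64 ± 0.35).

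Against cancer cells 31 of 40 list genes were higher in macrophages and 2 lower, with a median of 1.52 beside −0.03 over all genes (66.4% called), including all 4 transcription factors (Tfec 6.98 ± 0.25). Between Arg1 and Cx3cr1 macrophages, where Ctsl and Ctsd were higher in the former, 10 of 37 list genes were higher and 3 lower, beside 8.90% of all genes called. The proton pump subunit Atp6v0d2 (3.74 ± 0.46), Tfec (0.86 ± 0.15) and Cstb (0.55 ± 0.09) were among the higher genes, and Cd74 was lower (−0.75 ± 0.11). In the comparison of the groups 0 of 39 list genes tested were called in macrophages and 0 of 39 in neutrophils by edgeR, against 1 and 3 by DESeq2. Over all genes edgeR called 2 of 13883 in macrophages and 0 of 12842 in neutrophils, and DESeq2 called 66 and 83. Psap and Cst3, each the most abundant gene of its list in macrophages, were highest in OE-Vector 1 without passing the test. Psap was 4612 CPM in OE-Vector 1 and 3865, 3254 and 3913 CPM in OE-MLKL 1 to 3. Cst3 was 2001 CPM against 1870, 1878 and 1553 CPM in the same order. The most abundant genes of the other lists are not given for this comparison. The median difference over the list genes in macrophages was −0.13 beside 0.04 over all genes, and it was 0.15 for the maturation and sorting list that holds Psap and −0.29 for the cystatins and stefins that hold Cst3.

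The genes most like each member were taken by Pearson correlation of log2(CPM + 1) over 42 sums of 11 classes, across 8871 genes, as a description: sums of a library share its depth and free RNA, and the points come from classes that differ strongly. Ctsh and Ctsz were each other's most alike gene (r = 0.95). Ctss was most like Fcgr2b (0.95), Cd68 (0.93) and Rassf4 (0.93), and Ctsb like Plxna4os1 (0.97), Siglec1 (0.97) and Abca9 (0.95). Ctsa was most like Siglec1, Ang and Ctsb (each 0.95), Ctsd like Itm2b, Siglec1 and Ang (each 0.91), and Ctsc like Ms4a6c (0.93) and Dab2 (0.93). Ctsl was most like Lrp1 (0.91), Ecm1 (0.90) and Lamp2 (0.89), and its correlation with Ctsh was the lowest among the 28 pairs of members (0.47). Ctsk was below the mean level of 10 CPM required.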

How the data were processed

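The deposited matrices hold unfiltered UMI counts, which the authors made from 10x Genomics 3′ libraries with Cell Ranger on mm10. The submitters' processing notes name version 2.1.1 and the file headers 7.1.0. Cells with at least 500 UMIs, more than 200 genes, under 10% mitochondrial and at most 5% haemoglobin UMIs were kept. Classes were gated on marker levels per 10000 UMIs (macrophages at least 50 with 3 markers, neutrophils 200, monocytes 20, cancer cells 8, dendritic cells 5 with 2 markers) and not clustered; cells that passed several gates (2301) were left out, and no doublet caller was run. Markers included C1qa, C1qb, C1qc, Adgre1, Csf1r, Fcgr1 and Ms4a7 for macrophages and comparable sets for the others; cancer and dendritic cells also had to be low in macrophage and neutrophil markers. In macrophages, neutrophils, dendritic cells and cancer cells the median level of the class's own markers was above that of every other class's markers in each library. The gates used these same markers, so this order was largely set by them and does not test the identity of a class.

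Sums over the cells of a class in a library (at least 20 cells) were tested with edgeR 4.0.16 in R 4.3.3 (TMM, filterByExpr, quasi-likelihood test, Benjamini-Hochberg, threshold 0.05). Standard errors are the fold change divided by the square root of F. CPM are UMIs of a gene per 1000000 UMIs of the class. Whether intronic reads were counted is not given in the sources used here. DESeq2 1.42.0, limma-voom (limma 3.58.1), other gates, filters and scalings and the omission of each library were alternatives. The test was also run on simulated counts, with group differences larger than those reported here for the cathepsins. That run does not show its power at the reported sizes. The members and gene lists were chosen with earlier results of these data known. Named were all members, at most 4 called genes of each list by size and otherwise its most abundant gene, and the 3 genes most correlated with each member, of which 1 is not reported here. Positions were read from an annotation of GRCm38 and promoters from RefSeq.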

Additional observations from a re-analysis of the deposited data

Results flagged for a closer look

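Ctsl differed in direction between neutrophils and Arg1 macrophages. The mean level in the libraries labelled OE-MLKL was 1.17 times that of OE-Vector 1 in neutrophils, with each of the 3 libraries above it, and 0.529 times in Arg1 macrophages, with each below it. Ctss differed in direction between monocytes and macrophages. Its OE-MLKL mean was 0.668 times the OE-Vector 1 level in monocytes, with every library below it, and 1.25 times in macrophages, with every library above it. In the macrophage subsets the same ratio was 1.23 (Arg1), 1.35 (Mrc1-F13a1), 1.20 (Cx3cr1) and 1.33 (proliferating), each with every library above OE-Vector 1, beside 0.668 in monocytes. None of these differences between classes was tested, and each rests on the same OE-Vector library.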

How the results depend on the processing

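The member differences followed were those at an unadjusted p under 0.05 in the main fit, plus that of Ctss between the groups in macrophages. For these 83 differences, 999 alternative values were computed: 930 kept their direction and side of the threshold, 51 lost and 18 gained a call, and 0 turned direction. By this choice a turn in direction was unlikely. Calls gained by other member differences, such as Ctsb in neutrophils against cancer cells, are not in these counts. Without the library block the number of members called was 0 between Arg1 and Mrc1-F13a1, Arg1 and Cx3cr1, and Mrc1-F13a1 and Cx3cr1 macrophages and between proliferating and other macrophages, and 1 between Ccr7 and Xcr1-Clec9a dendritic cells; by construction, the spread between libraries then enters the error. List genes called between the groups in macrophages numbered 1 by DESeq2 and 1 without the filter on low counts, and 3 by DESeq2 in neutrophils; the cause was not tested. Leaving out 1 library at a time gave 0 to 4 members called between the groups in neutrophils, 0 to 1 in Arg1 and 0 to 1 in Mrc1-F13a1 macrophages, 0 to 5 for the interaction, 1 to 3 between Mrc1-F13a1 and Cx3cr1 macrophages, 1 to 3 between Ccr7 and Xcr1-Clec9a dendritic cells, and 0 to 3 and 0 to 15 list genes in macrophages and neutrophils; the upper values of the group comparisons came without OE-MLKL 3. Counts over all genes moved more: between the groups edgeR, DESeq2, no filter and no OE-MLKL 3 called 2, 66, 15 and 125 genes in macrophages, 0, 83, 29 and 1153 in neutrophils, 1, 106, 1 and 328 in cancer cells, 6, 64, 182 and 957 in Arg1, 0, 16, 33 and 425 in Mrc1-F13a1, 12, 3, 27 and 54 in Cx3cr1 and 0, 0, 23 and 3 in proliferating macrophages, 3, 14, 111 and 201 in monocytes and 2, 0, 44 and 123 in dendritic cells. Between classes, the genes called without the library block fell to 29 of 1157, 25 of 1041, 2 of 388 and 1274 of 3834 called with it (in the order given above for macrophage subsets), to 1146 of 1932 against monocytes and to 3108 of 4682 against dendritic cells; limma-voom called 696, 689 and 203 genes in the first 3 of these and 3198 against monocytes, the stricter gate 754 in the first and 1015 against monocytes, and DESeq2 800 in place of 1290 between dendritic cell subsets. Leaving out 1 library lowered these counts to no fewer than 627, 392 and 140 in the first 3, 2609 for proliferating macrophages, 1263 against monocytes, 3153 against dendritic cells and 624 between dendritic cell subsets, the last without OE-Vector 1 and the others without OE-MLKL 3. Without OE-MLKL 3 the interactions had 551, 263, 26 and 649 genes called in place of 3, 0, 1 and 5 (macrophages with neutrophils, cancer cells and dendritic cells, then neutrophils with cancer cells). Means over cells in place of sums moved 2 of 45 levels by over 1 SD (Ctsh in dendritic cells, 313 CPM, and Ctsk in cancer cells, 0.913 CPM), and 39 of 45 shares of cells moved without thinning. No paired analysis was possible because the groups share 1 replicate number among the matrices used. With 1 OE-Vector library the design limits every group comparison.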
